A study of Mus musculus with 4 samples.

Results

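SCL peaks were examined at 6 genes that encode proteins of the red cell membrane, Gypc, Slc4a1, Ank1, Kel, Rhag and Aqp1. SCL (also TAL1) is a transcription factor that blood cells need in order to form. Its binding was mapped by ChIP-seq in FLK1+ cells sorted at day 3.5 from embryoid bodies of wild-type J1 mouse ES cells, labelled C57Bl/6 X Sv129. FLK1 is a surface receptor of early mesoderm, from which blood, vessel and heart cells arise. The study had 2 libraries made with an in-house SCL rabbit antiserum and 2 input libraries without antibody, and the series description gives 2 independent differentiations. A peak belonged to a member gene when the start site nearest to its summit, among those of protein-coding transcripts in GENCODE vM1 on mm9, was that of the member. This gave 11 of the 12885 peaks in the deposited list. They fell to 5 of the 6 genes, each with at least 1 peak of fold 10 or more, and no peak fell to Ank1. Among all 22232 protein-coding genes, 29.2% had at least 1 peak by the same rule and 20% had one of fold 10 or more.

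The mature red cell is held in shape by a protein skeleton that is tethered to the lipid bilayer through a few membrane proteins. Ankyrin, from Ank1, ties spectrin to band 3, the anion exchanger encoded by Slc4a1. Glycophorin C, from Gypc, is anchored to the skeleton through the product of Epb4.1. The Rh-associated glycoprotein, from Rhag, belongs to the Rh complex and carries ammonium or gas. Kel encodes the Kell blood group protein, a surface endopeptidase, and Aqp1 encodes the water channel of red cells, which endothelium also makes. SCL binds DNA with an E protein partner at E-boxes and reaches GATA sites through LMO2, LDB1 and a GATA factor, so both motifs are often found side by side at its sites. FLK1+ mesoderm precedes red cells by several steps. The list holds binding and no expression, so neither the identity of the cells nor the activity of these genes was checked here.

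The DNA under the summits of Slc4a1, Kel, Rhag and Aqp1 is shown first, because the motifs in it are what these peaks can be compared by. Each line is the + strand of NCBIM37 (mm9). Windows run 50 bp to each side of the summit. For Kel, whose window reaches an untranslated exon, only 30 bases upstream of the start site are given. Peaks are numbered along the chromosome. Capitals mark E-boxes (CANNTG), GATA hexamers (the word AGATAA, the word AGATAG, and the same words with T as their first base, seen here mostly from the other strand as TTATCT and also as TTATCA) and the composite, which is CTG followed by GATA after 7 to 9 bases on either strand. On the + strand a reversed composite reads TATC, the spacer, then CAG.
Slc4a1 peak 1, chr11:102225101-102225201: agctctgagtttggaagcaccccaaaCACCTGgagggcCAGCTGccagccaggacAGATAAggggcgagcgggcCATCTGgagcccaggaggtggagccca
Slc4a1 peak 2, chr11:102236637-102236737: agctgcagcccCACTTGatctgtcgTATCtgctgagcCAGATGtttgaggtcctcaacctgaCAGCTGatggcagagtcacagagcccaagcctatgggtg
Kel peak, chr6:41654369-41654398: cctcttTTATCTtagtttctCAGgggagag
Rhag peak, chr17:40943740-40943840: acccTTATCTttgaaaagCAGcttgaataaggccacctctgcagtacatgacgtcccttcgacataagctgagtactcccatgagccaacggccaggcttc
Aqp1 peak 1, chr6:55276432-55276532: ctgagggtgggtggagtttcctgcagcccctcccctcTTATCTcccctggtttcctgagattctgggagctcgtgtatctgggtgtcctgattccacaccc
Aqp1 peak 2, chr6:55306189-55306289: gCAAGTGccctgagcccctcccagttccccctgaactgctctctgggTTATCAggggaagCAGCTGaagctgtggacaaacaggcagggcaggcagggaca

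Of these 6 windows, 4 carried the composite. With the Gypc windows included 5 of 11 did so, against 32.9% of all 12885 summit windows. At Kel and Rhag the spacer was 9 bases long, and at Slc4a1 peak 2 and Aqp1 peak 2 it was 8. In Slc4a1 peak 2 the GATA of the composite was not one of the hexamers, and its CTG lay inside the E-box CAGATG. In Aqp1 peak 2 the CTG lay inside a CAGCTG, which spans 10 to 15 bp after the summit. The Rhag composite lay 30 to 45 bp before the summit, and that of Kel 21 to 36 bp after it. Slc4a1 peak 1 had 3 E-boxes and an AGATAA, but CTG and GATA stood 12 bases apart, outside the composite. Aqp1 peak 1 had a lone GATA hexamer and no E-box.

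The fold enrichment, which divides the ChIP fragments piled up at a summit by the local background after 1 is added to each, was highest at 2 peaks of Gypc, and the other 3 Gypc peaks lay within the range of the other members. The 5 peaks of Gypc had folds of 136.7, 29.1, 265.8, 10.8 and 10.02 in order along chromosome 18. The 6 peaks of the other genes had folds between 7.43 at Aqp1 and 42.5 at Rhag. Over the 11 peaks the median was 11.6 (95% interval of the median from order statistics 9.21 to 136.7), with quartiles of 10.4 and 35.8. The whole list had a median of 11.1 and quartiles of 7.84 and 20.1. Without Gypc the median was 11.5. The median fold of the members was therefore close to that of the list, with a wide interval, and the folds above 42.5 were at Gypc. Among peaks with a significance (−log10 q) of at least 50, the medians were 42.5 for 5 member peaks, 3 of them at Gypc, and 23.9 for all 5233. That cut favours high folds and left no peak of Kel or Aqp1. A fold of at least 10 was reached by 9 of the 11 peaks, where 56.6% of all peaks did so. The 9 are 81.8% (Wilson 95% interval 52.3% to 94.9%, which includes the share of all peaks), and without Gypc the share was 66.7%. A fold of at least 20 was reached by 4, against 25.1%. A fold of at least 50 and one of at least 100 were both reached by 2, against 7.26% and 1.67%, and both of these peaks were at Gypc. The list is a merged call of both ChIP libraries, so it gives no replicate error. No test was run, since members were chosen with earlier results of these data known, and peaks of 1 gene are not independent.

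**Figure D1:**
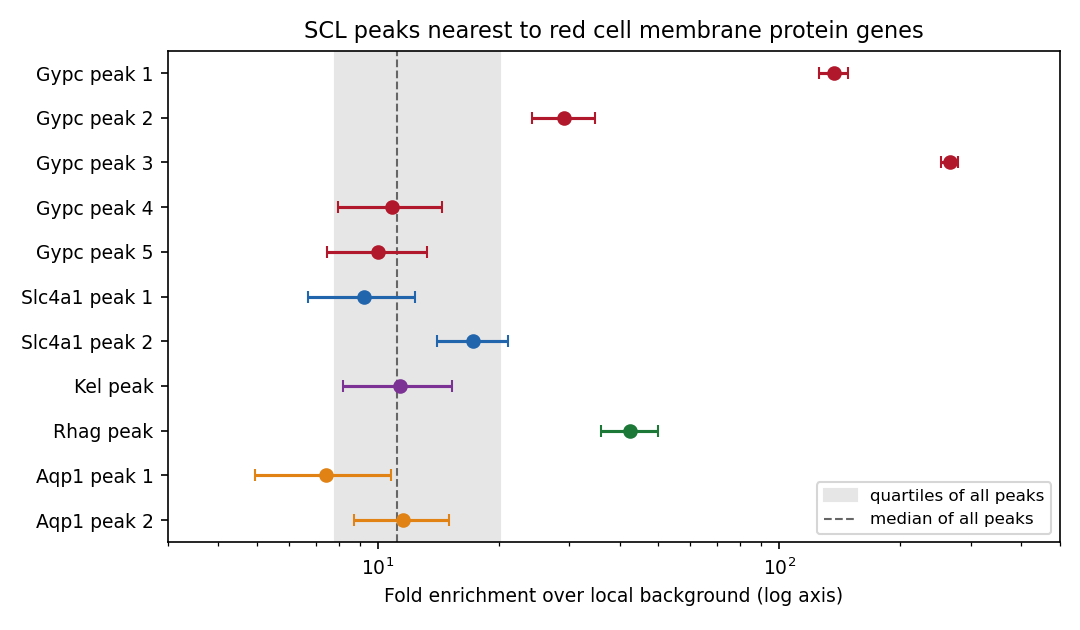
Fold enrichment of each of the 11 member peaks on a log axis, with 95% Poisson intervals from the fragments at the summit, which cover counting error only. The grey band is the range between the quartiles of all 12885 peaks, 7.84 to 20.1, and the dashed line their median of 11.1. Gypc peaks 1, 2 and 3 and the Rhag peak lie above the band, and Aqp1 peak 1 lies below it.

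The order of these peaks was set against counting error only. The merged call gives no variation between the libraries, so intervals that do not overlap may still not separate peaks across replicates. Gypc peak 3 rested on 1493 fragments (fold 265.8, 95% Poisson interval 252.5 to 279.6) and Gypc peak 1 on 543 (136.7, 125.5 to 148.7). The Rhag peak rested on 145 fragments (42.5, 35.9 to 49.98), Gypc peak 2 on 120 (29.1, 24.2 to 34.7) and Slc4a1 peak 2 on 95 (17.3, 14.03 to 21.1). These intervals did not overlap from one peak to the next down to Slc4a1 peak 2. Below it they did, and each of the next 6 peaks overlapped its neighbour. Aqp1 peak 2, the Kel peak, Gypc peaks 4 and 5 and Slc4a1 peak 1 had folds of 11.6, 11.3, 10.8, 10.02 and 9.21 on 53, 40, 44, 48 and 42 fragments, and their order is not resolved. Each of their intervals included a fold of 10, so whether Kel and Aqp1 pass that threshold is not resolved either. Aqp1 peak 1 was the lowest, with 26 fragments (7.43, 4.95 to 10.8). Local background ranged only from 2.43 fragments at Rhag, the lowest value of the list and shared by 1899 peaks, to 4.62 at Gypc peak 3, against a median of 3.67 over all peaks.

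**Figure D2:**
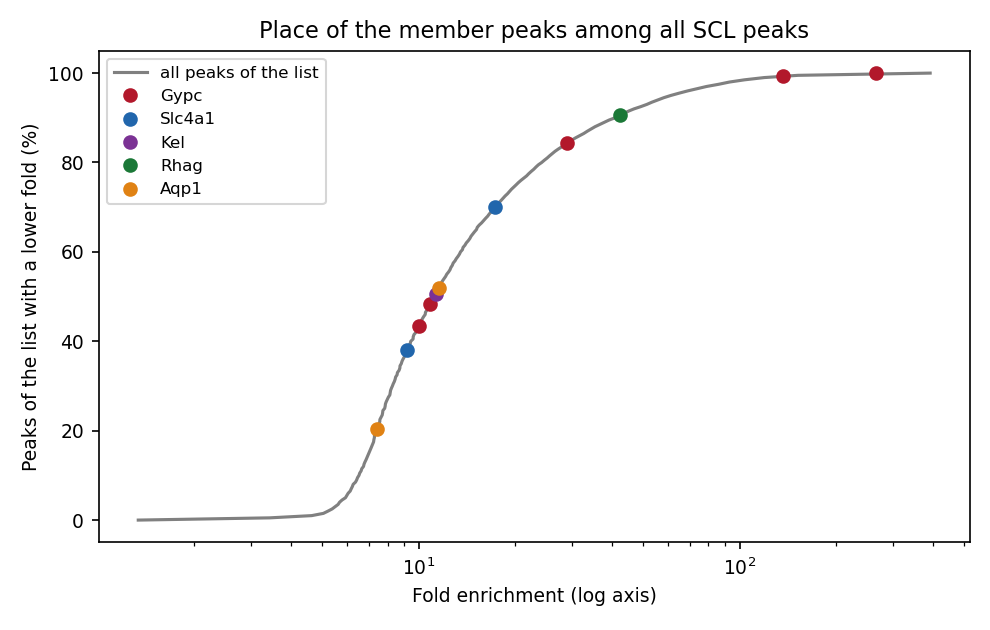
Share of the 12885 peaks with a lower fold (vertical axis, percent) against fold (log axis). The line is the whole list and the points are the 11 member peaks, coloured by gene. The 2 strongest Gypc peaks stand at the top of the curve, and 5 members lie between folds of 9.21 and 11.6 around its middle.

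Gypc, on chromosome 18 at 32687976 to 32719688 on the minus strand, had the densest and strongest binding. Its 5 peaks spanned 26234 bp. Of all protein-coding genes, 2.09% had 5 or more peaks. So did 3 of the 34 further membrane genes described below (8.82%), Add2, Cd47 and Slc2a1. Gypc peak 3, at 32701625 to 32702724, ranked 7 in the list by fold, 12 by −log10 p and 26 by fragments at the summit. Gypc peak 1, at 32697778 to 32698463, ranked 93 by fold. By strongest peak Gypc was also number 7 among genes. It was 1 of 8 genes with 2 or more peaks of fold at least 100, which is 0.036% of protein-coding genes, a count chosen after the values had been seen. Peaks 1 to 4 lay in introns of Gypc and peak 5, at 32724224 to 32724535, in intergenic sequence 4711 bp upstream of the outermost start site. From that start site, peak 4 (32711283 to 32711947) was 7877 bp into the gene and peaks 3, 2 and 1 were 17445, 20714 and 21523 bp into it. The latter 3 summits lay upstream of an internal start site, by 7171, 3902 and 3093 bp. Peaks 1 and 2 were close neighbours, with summits 809 bp apart, yet peak 2 (32698693 to 32699407) had a fold of 29.1 against 136.7. The next protein-coding gene, Bin1, had its start site 161294 bp or more from the 5 summits.

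Of the 5 Gypc peaks, 2 had both a GATA hexamer and an E-box, the 2 strongest. Over all 11 member peaks 4 had both, or 36.4%, against 37.8% of all peaks. Slc4a1 peak 1 (fold 9.21) and Aqp1 peak 2 (11.6) also had both, so the pair was not confined to strong peaks. Peak 3 had the composite with a spacer of 9 bases, from 2 to 17 bp after the summit, 3 GATA hexamers in all and an E-box 24 to 29 bp before the summit. Peak 1, the second strongest, had a GATA hexamer 29 to 34 bp after the summit and an E-box at 39 to 44 bp, with no composite. Peak 4, with a fold of 10.8, had 2 GATA hexamers and no E-box. Peaks 2 and 5 had neither motif in the window. No sequence is shown for this gene.

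**Figure D3:**
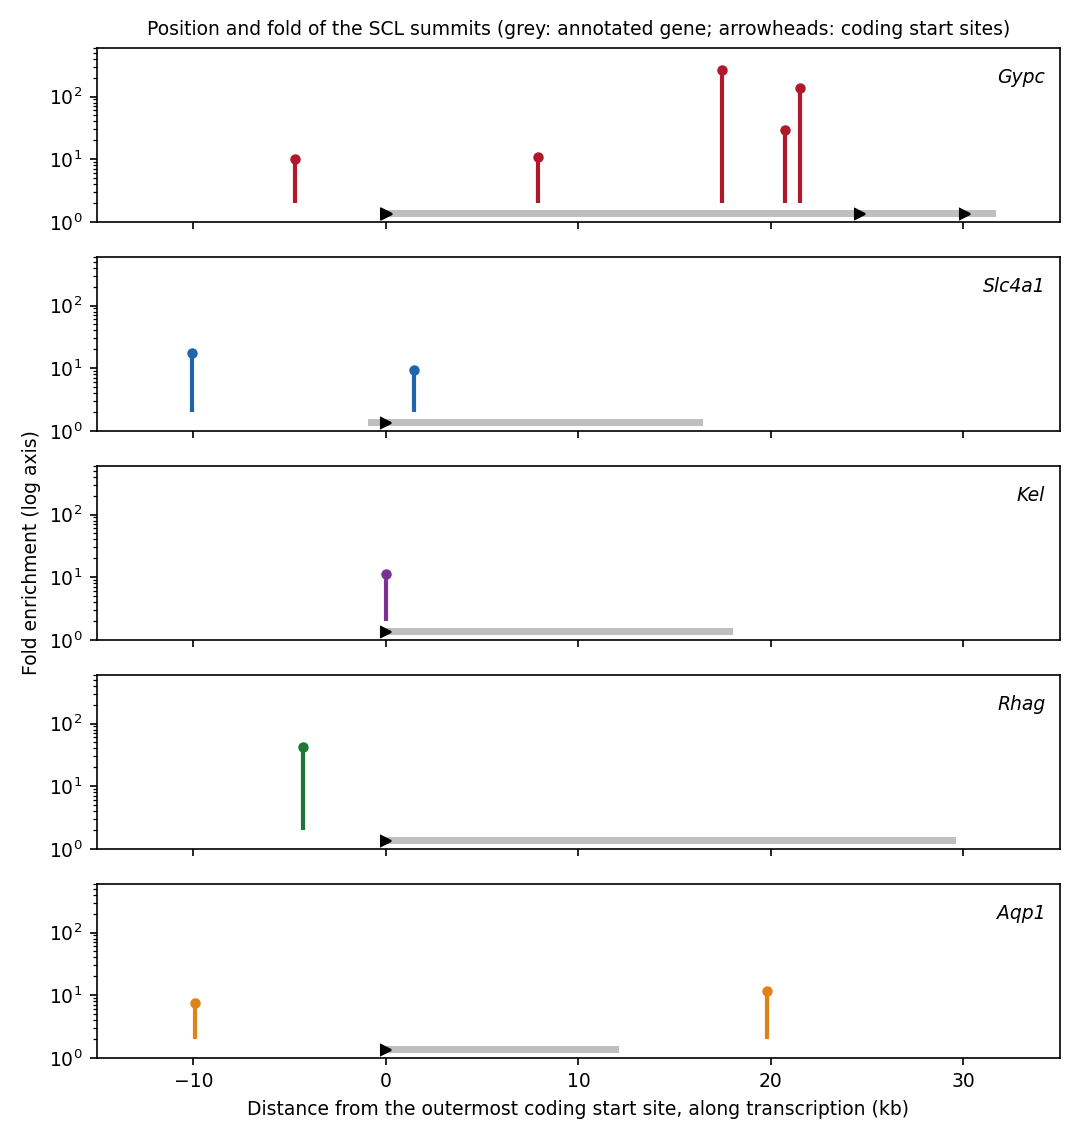
Summits of the member peaks by distance from the outermost coding start site of each gene, in kb along the direction of transcription, with the height of each dot giving the fold on a log axis. Grey bars are the annotated genes and arrowheads the coding start sites. The 3 strongest Gypc peaks lie 17.4 to 21.5 kb into the gene, the Kel peak at the start site and the Rhag peak 4.29 kb upstream. Ank1, with no peak, is not drawn.

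The Rhag peak was the strongest outside Gypc. It lay on chromosome 17 at 40943616 to 40943958, 4285 bp upstream of the start site of Rhag, and ranked 1213 of the list by fold and 2100 by pileup, the number of fragments at the summit. Its assignment depended on which transcripts were counted. The summit fell in an exon of a non-coding transcript of Crisp2, a gene for a secreted protein of sperm, and the start of that transcript was only 162 bp away. The nearest coding start site of Crisp2 was 12695 bp away. Counting non-coding transcripts of protein-coding genes left Rhag with 0 peaks.

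Slc4a1 had 2 peaks on chromosome 11. Peak 1, at 102224856 to 102225347, was in an intron 1443 bp downstream of the start site, with a fold of 9.21. A non-coding transcript of Slc4a1 itself starts 133 bp from this summit. Peak 2, at 102236554 to 102236843, was intergenic and 10093 bp upstream, with a fold of 17.3. The summits were 11536 bp apart. The next gene, Rundc3a, had its start site 18030 bp from peak 2. A start site of the non-coding gene Gm11616 was nearer to peak 2, at 1647 bp. Counting such genes left Slc4a1 with 1 peak, the weaker one.

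The Kel peak, on chromosome 6 at 41654219 to 41654475, was the only member peak within 1 kb of a coding start site, where 6.52% of all peaks lay. Its summit was 17 bp upstream. It was the narrowest of the 11, at 257 bp, and the most isolated, with the next summit of the list 149899 bp away. Its fold of 11.3 stood at rank 6365 of 12885.

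Aqp1 had 2 peaks on chromosome 6, on opposite sides of the gene. Peak 1, at 55275895 to 55276721, was 9944 bp upstream, with a fold of 7.43 at rank 10259. Peak 2, at 55306102 to 55306490, was 19813 bp downstream of the start site and beyond the end of the gene, with a fold of 11.6 at rank 6181. Peak 2 belonged to Aqp1 by a small margin, since the start site of Ghrhr, the growth hormone-releasing hormone receptor gene, was 20050 bp away.

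Ank1, on chromosome 8 at 24085316 to 24260969, has 14 coding start sites, and none was nearest to any summit. No summit lay in the gene. The nearest on one side was 150425 bp before its start, in a peak of fold 10.2 given to 1700041G16Rik. On the other side it was 169176 bp beyond its end, in a peak of fold 7.35 given to Golga7. The gap between these summits was 495254 bp, against a median of 69512 bp between neighbouring summits, and 9.32% of gaps were at least as long. It was picked for holding Ank1 with no summit inside, so it had to exceed the 175654 bp of the gene. The comparison therefore cannot show whether binding around Ank1 was unusually sparse. The deposited list keeps only peaks past its thresholds, so weaker binding at Ank1 was not detectable here.

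The motifs of the 11 windows were then compared with those of all 12885 summit windows and of flanking windows 1 kb to each side. GATA hexamers were in 8 of 11 windows, or 72.7% (Wilson 95% interval 43.4% to 90.3%), against 73.2% of all summits and 17.8% of flanks. The composite was in 5 of 11, or 45.5% (21.3% to 72.0%), against 32.9% of all summits and 3.07% of flanks. Across the alternatives its share of member summits ran from 33.3%, with start sites of lincRNA and processed-transcript genes added, to 66.7%, without Gypc. E-boxes were in 5 of 11, against 52.6% and 42.4% (with 100 bp on each side, in 72.7% against 73.6% of all summits). The form CAGCTG was in 3, against 14.1% of summits, and CAGATG in 2, against 19.6%. The KLF motif CCNCNCCC was in 2 windows, both at Aqp1, against 11.6%. An ETS motif (AGGAAG or CGGAAG) was in 1, Gypc peak 1, against 30.3%. A RUNX motif (TGTGGT or TGCGGT) was in 0 of 11, against 10.7%, and the interval for 0 of 11 reaches 25.9%. All searches covered both strands, and motifs may overlap, as the composite does with GATA hexamers and E-boxes. With 11 windows these intervals were wide, and the interval of each of these motifs included the share of all summits. For ETS it ran from 1.62% to 37.7%.

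**Figure D4:**
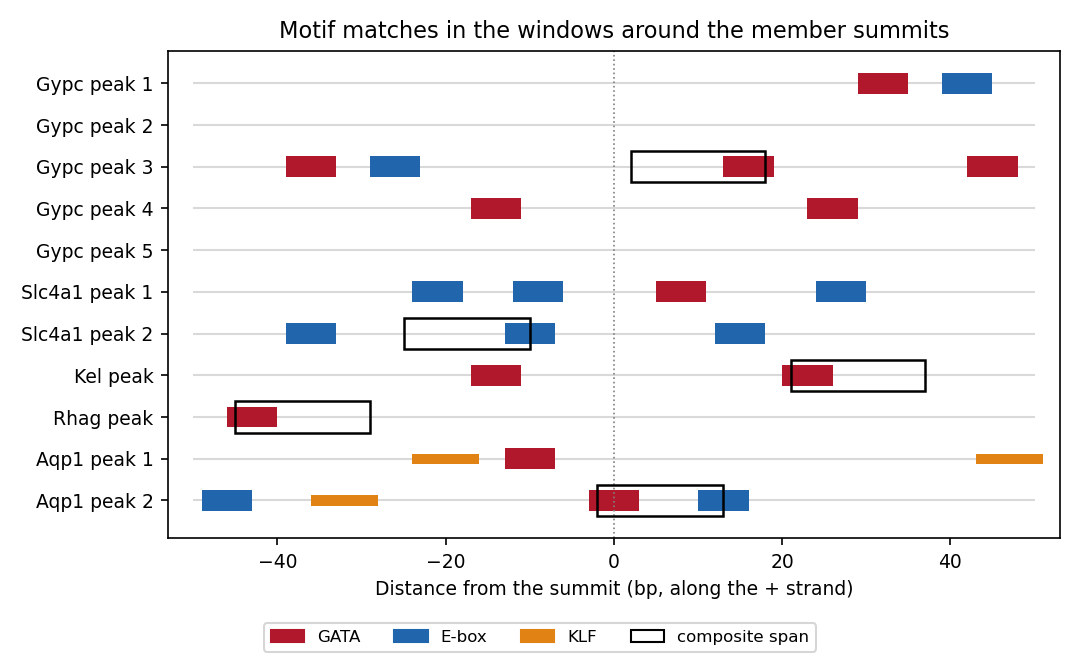
Matches of the GATA hexamers (red), E-boxes (blue) and KLF motif (orange) by position in bp from the summit in each of the 11 windows, on either strand, with the span of the composite outlined. Gypc peak 3, Slc4a1 peak 2, the Kel and Rhag peaks and Aqp1 peak 2 have the composite, and Gypc peaks 2 and 5 have no match.

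Width, GC content and position are given as descriptions. The median width was 492 bp, with a range of 257 to 1100 bp, against 397 bp in the list, and Gypc peak 3 was the widest. The median GC content of the windows was 55.5% (95% interval of the median 50.5% to 61.4%), against 50.5%. The median distance to a start site was 4711 bp, against 28366 bp, but the rule itself used this distance, so the difference is no finding. Of the member summits, 5 were in introns (45.5%), 5 in intergenic sequence (45.5%) and 1 in a non-coding exon (9.09%). Over all peaks the shares were 42.4%, 54.1% and 0.411% in the same order.

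A further 34 genes of the red cell membrane, listed by role with earlier results of these data known, set the 6 members in their wider family. All were found in the annotation, 6 of them under an older symbol. Of these, 26 had at least 1 peak, or 76.5% (Wilson 95% interval 60% to 87.6%), beside 29.2% of all protein-coding genes, with 66 peaks in all. A strongest peak of fold at least 10 was found for 24, where 20% of all protein-coding genes had one. The median fold of the 66 peaks was 13.2, against 11.1 over all peaks. The composite was in 29 of them, or 43.9% (32.6% to 55.9%), against 32.9% of all peaks. The list of genes was described and not tested.

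The 4 partners of band 3 and the Rh complex in the list all had a peak of fold at least 10. The strongest were those of Rhd, a Rh antigen, with 61.4, and Cd47, which joins the Rh complex, with 55.4, although the latter lay 55342 bp upstream of its start site. Epb4.2 (now Epb42), protein 4.2, had 43.3 at 27 bp from the start site, and Icam4, an adhesion protein, had 10.7.

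Of 8 genes of the spectrin skeleton, 7 had a peak and 6 reached a fold of 10. The highest was 94.1 at Epb4.1 (Epb41), whose product holds glycophorin C, although this summit lay 1642 bp upstream of the start site of Epb4.1, in an exon of another gene, Gm10300. Add2, a β-adducin gene, had 44.4 and Spnb1 (Sptb), β-spectrin, had 28.9. Tmod1, tropomodulin, had 20.4, Epb4.9 (Dmtn), dematin, had 17.4 and Add3 had 16.2. Mpp1, whose product joins the same complex as glycophorin C, had no peak.

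Of 12 blood group and adhesion genes, 7 had a peak, each of fold at least 10. Cd59a, a complement inhibitor, had a peak of fold 204.5 and Art4, the Dombrock antigen gene, one of 188.8 at 5 bp from its start site. These were the only genes of the 34 beyond Kcnn4 with a peak of fold at least 100. Darc (Ackr1), the Duffy antigen, had 58.8, Bsg, basigin, had 32.9, Abcg2, a transporter, had 20.1, Slc14a1, a urea transporter and the Kidd antigen, had 18.4 and Cd44 had 15.6. No peak fell to Xk, which encodes the membrane partner of Kell, or to Ermap, Bcam, Abcb6 and Sema7a.

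Among 10 transporters and channels, 8 had a peak and 7 reached a fold of 10. Kcnn4, the Gardos potassium channel, had 104.2. Fam38a (Piezo1), the mechanosensitive channel, had 70.8, at a summit that also lay in an intron of Gm20388. Atp2b4, a calcium pump, had 26.1, Slc2a1, a glucose transporter, had 25.5, Slc29a1, a nucleoside transporter, had 19.1, Slc16a1, a lactate transporter, had 13.5 and Stom, stomatin, had 10.6. Neither Aqp9 nor Slc12a4 had a peak.

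Promoter binding, counted after the positions had been seen, occurred at 10 of the 34 genes and at 1 of the 6 members, Kel, where 3.54% of all protein-coding genes had a summit within 1 kb of a coding start site of their own.

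**Figure D5:**
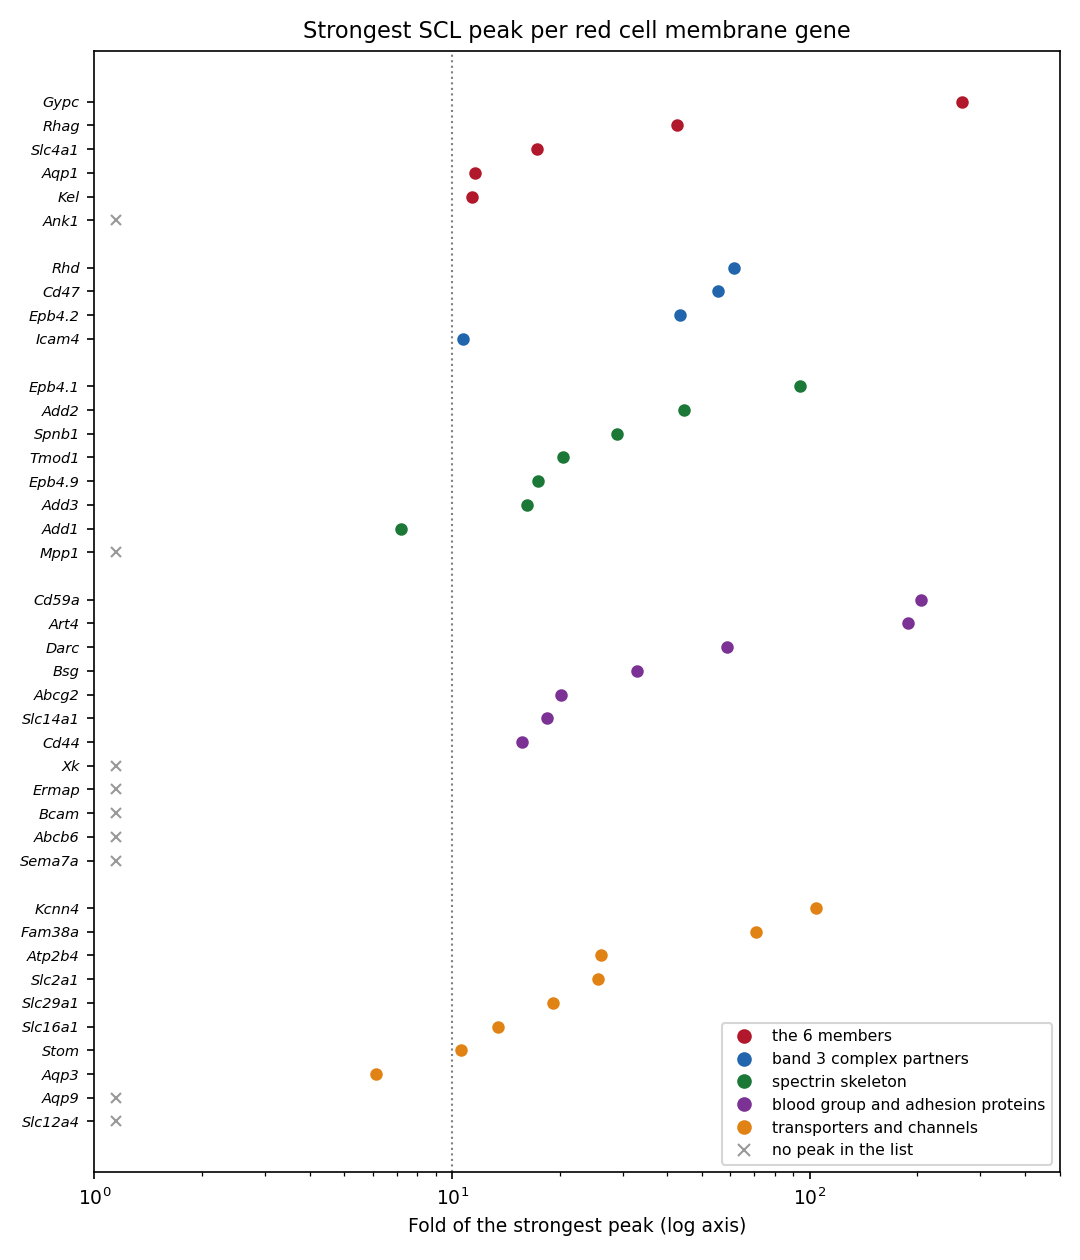
Fold of the strongest SCL peak (log axis) for the 6 members and the 34 further genes, grouped by role, with symbols as in the annotation. Crosses mark genes with no peak, and their place on the axis carries no value. The dotted line is a fold of 10, passed by 5 of the 6 members and by 24 of the 34 further genes, and Gypc has the highest fold of all those drawn.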

How the data were processed

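Per the study's methods and the labels, the authors aligned paired-end reads of 37 cycles to mm9 with Bowtie 1.1.2, removed duplicates, called peaks with MACS2 2.0.10 and merged the replicates using the irreproducible discovery rate. The deposited list was used whole, and later peak filtering by the authors was not applied, so ranks and shares refer to the deposited list. Each deposited peak carries the authors' fold enrichment (a ratio) and its significance as −log10 p and −log10 q, with replicates merged. The list has no values for single libraries and gives no depth.

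From the deposited fold and −log10 p, the whole number of fragments at each summit (pileup) and the local background were solved with the MACS2 equations, in which the fold is pileup plus 1 over background plus 1. The solution matched −log10 p to within 0.001 in 99.9% of peaks. Exact Poisson 95% intervals came from the pileup. Start sites were those of protein-coding transcripts of protein-coding genes in GENCODE vM1. All peaks lay within the NCBIM37 chromosomes. Sequences were read from that genome. Steps were run in Python 3.11.15 with scipy 1.17.1 and tested on simulated data.

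The members and gene lists were chosen with earlier results of these data known. Every member peak is named, as are genes of the wider list with a strongest fold of at least 10 or with no peak. Some genes of that list are not reported here. Alternatives covered start sites, assignment, thresholds, joining of peaks, window size and strength measure.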

Additional observations from a re-analysis of the deposited data

How the results depend on the processing

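No paired analysis was possible because both numbered ChIP libraries were merged into a joint call, and leaving out a replicate was not possible for the same reason. Of 97 alternative values, 81 differed from the reported value by less than its interval (for counts and ranks, by less than 1.5 times) and 16 by more, 13 of these for a single gene. At a −log10 q of at least 50, the number of member peaks fell from 11 to 5 and the share with a fold of at least 10 rose from 81.8% to 100%, since only stronger peaks are kept. Their median fold was then 42.5, where that of all 5233 such peaks was 23.9. Kel and Aqp1 kept 0 peaks, Slc4a1 and Rhag 1 each and Gypc 3. Windows of 100 bp on each side raised the share with an E-box from 45.5% to 72.7%, beside 73.6% of all summits. The peak of Rhag was lost with start sites of non-coding transcripts and with the outermost start of each gene, both of which were added after seeing the data, as was leaving out Gypc. The same Crisp2 transcript also took it when lincRNA and processed-transcript genes were added, since non-coding transcripts of coding genes were then counted too. Ank1 had 0 peaks in every alternative. Stricter thresholds and a limit on distance from the gene cannot raise a count, so these could not have given Ank1 a peak. They are nevertheless counted among the 81. The strongest Gypc peak ranked 12 by −log10 p and 26 by pileup, and that of Rhag 2100 by pileup. The share of the 34 further genes with a peak ranged from 61.8% to 76.5%, beside 15.5% to 29.2% of all protein-coding genes. The small number of peaks limits all shares, and 26 to 53 fragments a summit do not resolve the order of the weaker peaks.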
